A study of Mus musculus with 12 samples.

Results

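The comparison set gonadal white adipose tissue (gWAT), the visceral fat pad next to the male reproductive tract, of WT mice on high-fat diet (WT-HFD) against WT mice on normal chow diet (WT-NCD). Its members were the 3 WT-HFD libraries, numbered 1, 2 and 4 in the count table, and the 3 WT-NCD libraries, numbered 1, 2 and 3, so 6 of the 12 libraries of the series. The diet contrast was read across all expressed genes: 16352 of 19792 genes passed the filter on low counts.

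The series asked what loss of connexin 43, encoded by Gja1, in Csf1r-expressing macrophages does to obese gWAT, and the WT pair gives the diet response against which that is set. WT mice were male C57BL/6 mice with floxed Gja1 alleles and without Csf1r creER. Diet began at 6 weeks of age and lasted 8 weeks. The protocol places 2 tamoxifen courses of 5 days in weeks 1 and 5 of feeding without naming a genotype, the treatment label lists tamoxifen for KO mice only, and the study's methods give it to both genotypes, as 1 course that ended before the experiments began. The sources therefore differ on who was dosed and on whether dosing fell before or during feeding. No source used here ties a library to a single animal or a pool of animals, so p-values measure the spread between libraries. That spread was estimated from all 12 libraries of the series, KO groups included. Gja1 itself had 68.8, 65.8 and 68.1 CPM in WT-HFD, against 73.8, 76.8 and 83.6 CPM in WT-NCD (log2 fold change -0.21 ± 0.33, adjusted p = 0.66). Here CPM is a count scaled by the TMM-adjusted library size (the usual per-library unit of edgeR), and it is used to compare 1 gene between libraries, not to rank genes. Adjusted p-values came from edgeR's quasi-likelihood test, and a gene was called higher or lower in WT-HFD at an adjusted p below 0.05. The value after ± is a standard error worked back from that test, not the spread of the printed values within a group.

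White adipocytes store triglyceride in a single large droplet. In chow-fed mice part of that lipid is made from glucose inside the fat cell: citrate leaves the mitochondrion, ATP citrate lyase and acetyl-CoA carboxylase turn it into malonyl-CoA, and fatty acid synthase builds palmitate. In obesity dying adipocytes are surrounded by macrophages that take up the released lipid in their lysosomes, and the matrix around the fat cells thickens.

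The libraries held 49575113 to 66360046 counts in WT-HFD and 67486877 to 69842234 counts in WT-NCD. The tissue label held for fat: Adipoq had 1925, 1917 and 1330.2 CPM in WT-HFD, against 3049, 2100.2 and 3285 CPM in WT-NCD, and Fabp4, which encodes the adipocyte fatty acid carrier, had 7741, 9503 and 7865 CPM in WT-HFD, against 11339.9, 6867 and 9302 CPM in WT-NCD. The WT-NCD libraries also held transcripts of the seminal vesicle, the gland that lies against the gonadal pad. The 11 listed seminal vesicle genes took 1.20e-05%, 4.52e-06% and 4.03e-06% of counts in WT-HFD, against 8.92%, 10.5% and 2.04% in WT-NCD, and Svs4, a secretory protein of that gland, was at 0 in every WT-HFD library, against 23686, 23911 and 4229.6 CPM in WT-NCD. All 11 were called lower in WT-HFD. WT-NCD 1 and 2 held several times more of these transcripts than WT-NCD 3. Of the 3001 genes called lower, 280 (9.33%) had a mean in WT-NCD 1 and 2 over 2 times their level in WT-NCD 3, against 1394 of all 16352 genes (8.52%). Among the 273 lower genes past a 10-fold difference (1.67% of those tested) the number was 198 (72.5%), so most of the largest falls lay in genes that were uneven in this way. Library WT-HFD 1 also stood apart from WT-HFD 2 and 4 in several immune genes, described after the macrophage results.

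Diet separated the WT groups across much of the transcriptome. A total of 5881 genes passed, 36.0% of those tested. Of these 2880 were higher in WT-HFD (17.6%) and 3001 were lower (18.4%). In KO mice the same diet contrast had 5 genes that passed (0.0306%), and the diet effect itself differed between WT and KO for 2893 genes (17.7%). So few calls do not show that the KO diets were alike, and the KO chow libraries were uneven in some immune lists, given with the flagged results. The median log2 fold change over all genes tested was near 0. Scaling to library totals without TMM moved that median to 0.26 and the split of calls to 4841 higher and 1673 lower (74.3% higher, against 49.0% with TMM). Without WT-NCD 1 and 2, the libraries with most seminal vesicle transcripts, 1050 genes were higher and 1424 lower, with a single WT-NCD library left whose spread was taken from the other groups. Because tissue was measured in bulk, fewer cells of a type and less RNA per cell cannot be told apart in any result that follows.

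**Figure D1:**
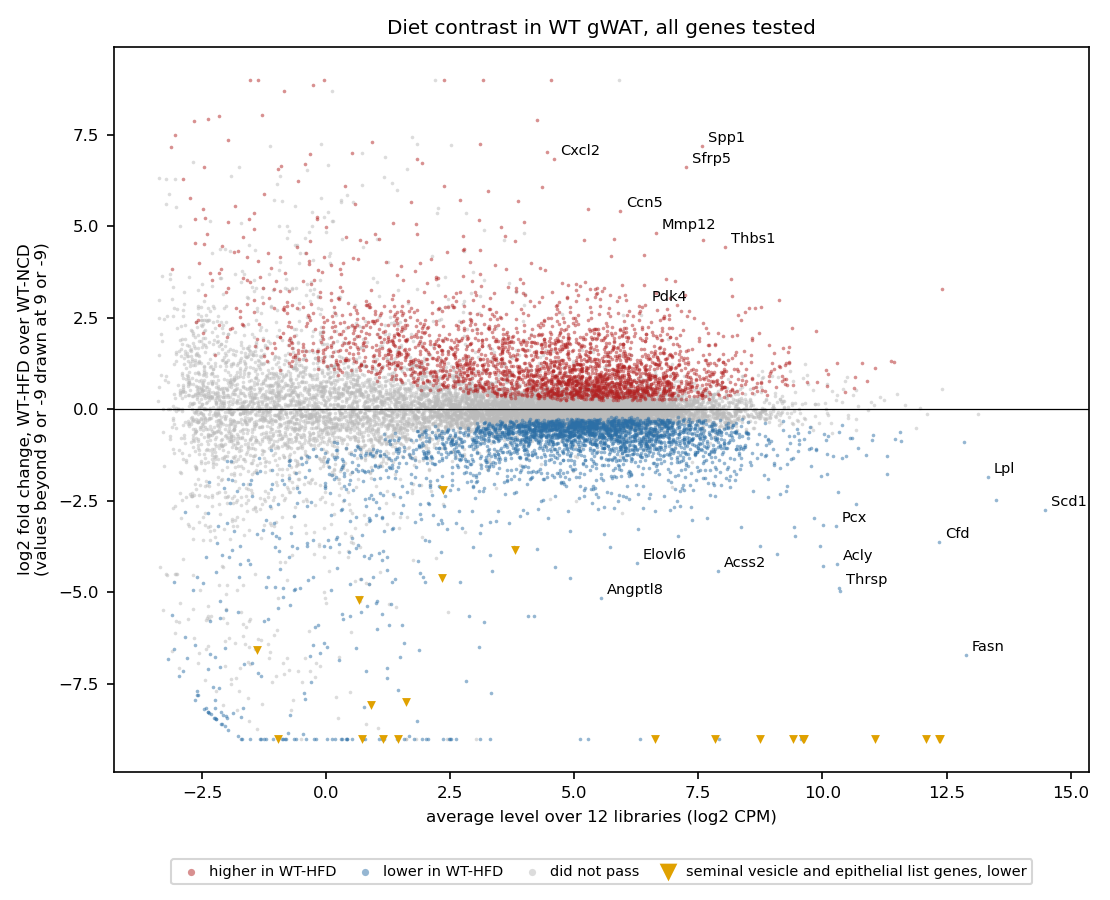
Each point is 1 of the 16352 genes tested, by its average level over the 12 libraries (log2 CPM) and its log2 fold change in WT-HFD over WT-NCD. Red genes were called higher and blue genes lower. Yellow triangles are the seminal vesicle, epididymis and epithelial list genes called lower, several of which lie at or beyond -9. Fasn, Acly, Acss2 and Thrsp form the lower right edge of the genes that belong to fat.

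Fatty acid synthesis had the lowest median of the fat metabolism lists. Of 19 fatty acid synthesis genes, 16 were lower in WT-HFD and 0 higher, with a median log2 fold change of -3.22 against a median near 0 over all genes. None of the 16 overlapped between diets (24.6% of all genes tested had every WT-HFD library below every WT-NCD library), and the list took 0.728%, 0.901% and 0.541% of counts in WT-HFD, against 5.42%, 6.80% and 7.29% in WT-NCD. The count was 16 without each of the 6 libraries in turn and 15 without WT-NCD 1 and 2 together.

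Fasn, fatty acid synthase, had 256, 236 and 102 CPM in WT-HFD, against 16049.5, 23455 and 22256 CPM in WT-NCD. That was 104-fold lower in WT-HFD (log2 fold change -6.70 ± 0.52, adjusted p = 5.33e-05). Each WT-HFD library lay far below each WT-NCD library, with WT-HFD 4 the lowest. Acly, ATP citrate lyase, had 208, 191 and 174 CPM in WT-HFD, against 3044, 3562 and 4044 CPM in WT-NCD (log2 fold change -4.22 ± 0.32, adjusted p = 5.33e-05). Acss2, which makes acetyl-CoA from acetate, had 37.6, 41.3 and 25.2 CPM in WT-HFD, against 715, 741 and 761 CPM in WT-NCD and the smallest p-value of all genes called lower (log2 fold change -4.41 ± 0.24, adjusted p = 3.84e-05). Elovl6, the elongase that extends palmitate, had 10.2, 10.95 and 11.1 CPM in WT-HFD, against 174, 210.3 and 209 CPM in WT-NCD (log2 fold change -4.20 ± 0.29, adjusted p = 5.33e-05). The diets did not overlap for any of these 3 enzymes, which was a condition for genes named by smallest p-value.

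The steps around fatty acid synthase moved the same way. Slc25a1, the mitochondrial citrate exporter, had a log2 fold change of -3.73, Acaca, acetyl-CoA carboxylase 1, of -4.29, and Me1, the malic enzyme that supplies NADPH, of -3.74. Thrsp, a lipogenic cofactor known as Spot 14, had 183, 129 and 40.2 CPM in WT-HFD, against 4067, 2541 and 3705 CPM in WT-NCD (log2 fold change -4.87 ± 0.64, adjusted p = 0.000346). The desaturase Scd1 had 5499, 6348 and 3652 CPM in WT-HFD, against 29664, 36819.5 and 37287 CPM in WT-NCD (log2 fold change -2.74 ± 0.30, adjusted p = 0.00014). Of the lipogenic transcription factors, Srebf1 had a log2 fold change of -2.40 and Mlxipl, which encodes ChREBP, of -1.87. Elovl5, an elongase of polyunsaturated fatty acids, did not pass, with 144, 149.7 and 145 CPM in WT-HFD, against 133, 131 and 166 CPM in WT-NCD (log2 fold change 0.03 ± 0.11, adjusted p = 0.87).

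Angptl8, a secreted protein induced in fat by feeding, had 3.49, 2.57 and 3.96 CPM in WT-HFD, against 145, 91.2 and 122 CPM in WT-NCD (log2 fold change -5.16 ± 0.45, adjusted p = 7.32e-05). Pnpla3, a lipid droplet acyltransferase and hydrolase and a further known target of lipogenic signals, had 87.1, 96.5 and 40.2 CPM in WT-HFD, against 1089, 1111 and 1267 CPM in WT-NCD (log2 fold change -3.95 ± 0.37, adjusted p = 8.32e-05). Cyp2e1, a cytochrome P450 of ethanol and ketone oxidation, had 51.2, 195 and 46.5 CPM in WT-HFD, against 2866, 1448 and 4713 CPM in WT-NCD (log2 fold change -4.95 ± 0.76, adjusted p = 0.000777). All 3 were apart between the diets, a condition for naming Angptl8 and Cyp2e1 among the largest falls. Cyp2e1 had the widest spread within each diet. Eno1b, a retrotransposed copy of Eno1, was near 0 in WT-HFD with 0.0817, 0.0556 and 0.0744 CPM in WT-HFD, against 54.4, 37.8 and 44.0 CPM in WT-NCD (log2 fold change -9.32 ± 2.37, adjusted p = 0.0111), and because its reads can be shared with Eno1 that value is uncertain. Scd3, a close relative of Scd1, had 5.62, 0 and 0 CPM in WT-HFD, against 24.5, 61.5 and 45.6 CPM in WT-NCD and carries the same uncertainty. The remaining 4 of the 10 largest falls by the naming rule were Pate14, 9530003J23Rik, Ceacam10 and Dnase2b, which were several times higher in WT-NCD 1 and 2 than in WT-NCD 3, the order the seminal vesicle transcripts had. Pate14 had 0, 0 and 0 CPM in WT-HFD, against 1258, 1359.5 and 269.6 CPM in WT-NCD.

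The supply of glucose carbon and NADPH followed. Of 17 genes of glucose entry, glycolysis and the pentose phosphate pathway, 13 were lower and 0 higher (median log2 fold change -0.81). Tkt, transketolase, had 373, 229.8 and 214 CPM in WT-HFD, against 2629.7, 2036 and 2666 CPM in WT-NCD (log2 fold change -3.16 ± 0.31, adjusted p = 9.07e-05). Slc2a4, the insulin-responsive glucose transporter GLUT4, had 93.2, 87.5 and 51.0 CPM in WT-HFD, against 309, 272 and 346 CPM in WT-NCD (log2 fold change -1.999 ± 0.25, adjusted p = 0.000242). G6pdx, the entry enzyme of the pentose phosphate pathway, did not pass, with 455, 293 and 249 CPM in WT-HFD, against 365, 392 and 366 CPM in WT-NCD (log2 fold change -0.17 ± 0.18, adjusted p = 0.497). Its groups overlapped, with WT-HFD 1 the highest of the 6 libraries.

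Triglyceride assembly genes were lower in 11 of 12 cases, with 0 higher (median -1.33). Agpat2, which makes phosphatidic acid and is mutated in a congenital lipodystrophy, had 205, 171 and 83.3 CPM in WT-HFD, against 1816, 1779 and 1449 CPM in WT-NCD (log2 fold change -3.46 ± 0.37, adjusted p = 0.000135). Mogat1, a monoacylglycerol acyltransferase, had 4.60, 3.56 and 2.18 CPM in WT-HFD, against 56.1, 31.5 and 57.1 CPM in WT-NCD (log2 fold change -3.81 ± 0.43, adjusted p = 0.000172). Pck1, the glyceroneogenic enzyme, was the member that did not pass, with 736, 870.1 and 344 CPM in WT-HFD, against 775, 562 and 1185 CPM in WT-NCD (log2 fold change -0.37 ± 0.36, adjusted p = 0.453). The list had 7 members lower without WT-NCD 1 and 2.

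Uptake, storage and release of fatty acids moved less evenly. Of 18 uptake and droplet genes 8 were lower (44.4%) and 2 higher (11.1%). With the replicate number added to the fit (the replicate block) 3 members were lower, and with library totals 4 were higher. Of 17 lipolysis genes 8 were lower (47.1%) and 4 higher (23.5%), with 1 higher without WT-NCD 1 or without WT-NCD 2. Over all genes tested 18.4% were lower and 17.6% higher. Bscl2, the seipin of droplet assembly, had 118, 156 and 130.2 CPM in WT-HFD, against 579, 417 and 495 CPM in WT-NCD (log2 fold change -1.88 ± 0.15, adjusted p = 5.67e-05), and Lpl, lipoprotein lipase, had 8360.2, 2979 and 2889 CPM in WT-HFD, against 17887, 15498 and 18016 CPM in WT-NCD (log2 fold change -1.85 ± 0.42, adjusted p = 0.00623). Plin1, the coat protein of the large droplet, had 697, 755 and 496 CPM in WT-HFD, against 1414, 1606 and 1658 CPM in WT-NCD, whereas Plin2, the coat protein of small droplets in many cell types, had 1428, 917 and 1206 CPM in WT-HFD, against 737, 682 and 567 CPM in WT-NCD (log2 fold change 0.84 ± 0.18, adjusted p = 0.00464). Cd36 and Fabp4 did not pass, with log2 fold changes of 0.04 and -0.13. Adrb3, the adipocyte adrenergic receptor that starts lipolysis, had 177, 353 and 104 CPM in WT-HFD, against 1017, 758 and 1365 CPM in WT-NCD (log2 fold change -2.31 ± 0.39, adjusted p = 0.00137). Lipe, hormone-sensitive lipase, was lower (log2 fold change -1.05), while Pnpla2, adipose triglyceride lipase, did not pass (1359, 1491 and 1089 CPM in WT-HFD, against 1488, 1179 and 1691 CPM in WT-NCD, log2 fold change -0.15 ± 0.16, adjusted p = 0.513).

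Cholesterol synthesis genes were lower in 19 of 24 cases and higher in 0 (median -1.39), and 14 members were lower without WT-NCD 1 and 2. Acat2, the thiolase of the first step, had 35.0, 45.6 and 31.2 CPM in WT-HFD, against 219, 171 and 209 CPM in WT-NCD (log2 fold change -2.42 ± 0.17, adjusted p = 5.33e-05). Fdps, Pmvk and Nsdhl, which act further along the pathway, had log2 fold changes of -2.39, -2.46 and -2.34. Insig1, a sterol-sensing partner of the SREBP system, had 101, 87.4 and 71.3 CPM in WT-HFD, against 468, 507 and 342 CPM in WT-NCD (log2 fold change -2.34 ± 0.33, adjusted p = 0.000495). Hmgcs1, a synthase of the early steps, did not pass, with 363, 244 and 189 CPM in WT-HFD, against 284, 293 and 268 CPM in WT-NCD (log2 fold change -0.09 ± 0.20, adjusted p = 0.773). Srebf2, the transcription factor of the pathway, did not pass either (log2 fold change 0.08).

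Promoter letters were read for the lipid lists from RefSeq windows on GRCm38.p6 that run from 250 bases before to 50 bases after a start site, and 12783 of the genes tested matched a window. Motifs were searched on both strands: the sterol regulatory element as TCACNCCAC, the E-box of basic helix-loop-helix factors as CACGTG, and the direct repeat of PPAR-RXR as 2 AGGTCA half-sites 1 base apart. An E-box stood in 3 of 15 fatty acid synthesis promoters and 4 of 17 cholesterol promoters (23.5%), against 10.9% of the 12783 genes. The sterol element stood in 1 of 15 (6.67%) and 1 of 17 (5.88%), against 1.42%, and the direct repeat in 0 of either list, against 0.0548%. The E-box was not particular to these lists or to lower genes: it stood in 3 of 14 lipid-associated macrophage promoters (21.4%), in 10.8% of genes called lower and in 11.4% of genes called higher. It stood in 0 of 16 macrophage surface promoters. The sterol element stood in 1 of the 14 lipid-associated macrophage promoters (7.14%) and in 1 of the 16 macrophage surface promoters (6.25%). Elovl5, which did not pass, is among the fatty acid synthesis genes with an E-box, and 1 of the 4 cholesterol genes with one did not pass either. The 1 cholesterol gene with the sterol element, Hmgcs1, did not pass, while the 1 fatty acid synthesis gene with it, Mlxipl, was lower. Slc25a1 (chr16:17928170-17928469, minus strand) and Insig1 (chr5:28071162-28071461, plus strand) are shown because both genes were lower in every WT-HFD library and both windows hold an E-box, in capitals. The match starts at base -239 in Slc25a1 and at base -101 in Insig1, relative to the start site, and no motif overlapped another. These are letter matches and not tested sites.
Slc25a1: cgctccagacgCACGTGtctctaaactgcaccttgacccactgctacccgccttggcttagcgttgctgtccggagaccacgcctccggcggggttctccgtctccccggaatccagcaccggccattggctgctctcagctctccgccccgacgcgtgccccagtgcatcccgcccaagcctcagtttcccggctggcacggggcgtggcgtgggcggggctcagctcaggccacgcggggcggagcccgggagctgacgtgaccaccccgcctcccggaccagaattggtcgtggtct
Insig1: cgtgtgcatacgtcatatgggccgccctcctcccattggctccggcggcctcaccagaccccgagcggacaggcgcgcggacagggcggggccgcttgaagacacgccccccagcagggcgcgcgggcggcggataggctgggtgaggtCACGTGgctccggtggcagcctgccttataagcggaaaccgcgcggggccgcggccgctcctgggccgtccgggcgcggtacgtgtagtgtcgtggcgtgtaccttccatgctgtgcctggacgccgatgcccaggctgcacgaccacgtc

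**Figure D2:**
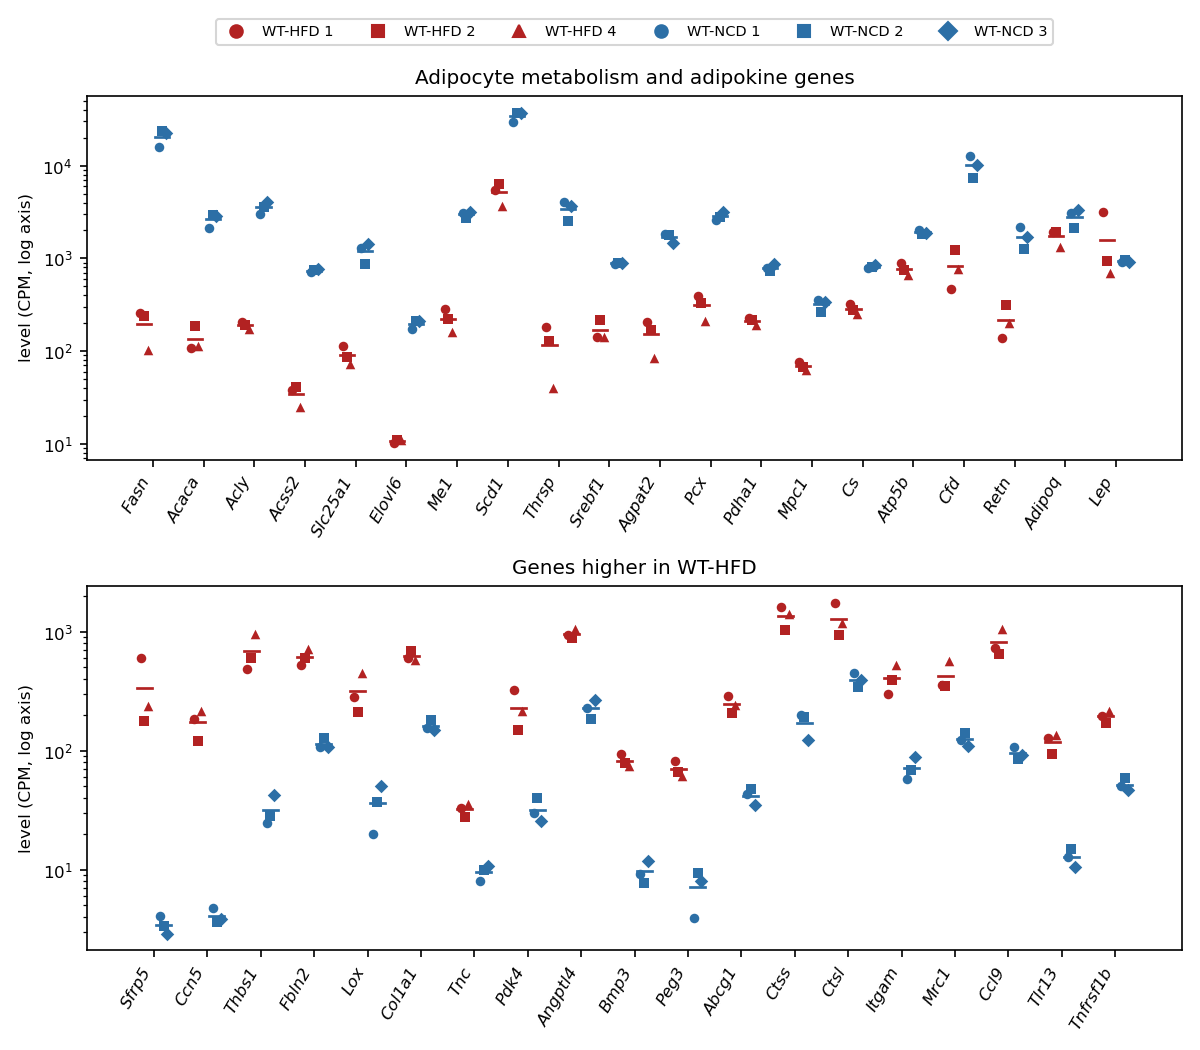
Level of 39 genes in each of the 6 WT libraries (CPM, log axis), with WT-HFD in red left of WT-NCD in blue, one marker shape per library and a bar at the group mean. In the upper panel Lep is the gene whose groups overlap, with WT-HFD 1 above all others, and Adipoq lies close between the diets. In the lower panel all 19 genes are apart.

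Mitochondrial genes were lower as a block. All 25 oxidative phosphorylation subunits tested were lower in WT-HFD (median -1.120), and 23 were without WT-NCD 1 and 2. Their log2 fold changes lay between -1.58 and -0.67. Cyc1 of complex III had 94.7, 96.0 and 87.2 CPM in WT-HFD, against 308, 254 and 270.3 CPM in WT-NCD (log2 fold change -1.58 ± 0.14, adjusted p = 7.80e-05), and Cox6c of complex IV, with one of the smaller falls, 106, 106 and 117 CPM in WT-HFD, against 242, 134 and 174 CPM in WT-NCD (log2 fold change -0.74 ± 0.20, adjusted p = 0.0154). Neither overlapped between diets, though WT-NCD 2 lay close to the WT-HFD libraries for Cox6c, which was not called without WT-NCD 1 (adjusted p = 0.0551). Cox6c was not called with library totals.

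Pyruvate entry and the TCA cycle had 23 of 27 members lower and 1 higher (median -1.17). Pcx, pyruvate carboxylase, which refills the cycle when citrate leaves for lipid synthesis, had 392, 331 and 212 CPM in WT-HFD, against 2622, 2770.3 and 3150.4 CPM in WT-NCD (log2 fold change -3.19 ± 0.29, adjusted p = 7.80e-05). Mpc1, a subunit of the mitochondrial pyruvate carrier, had 77.2, 68.0 and 62.6 CPM in WT-HFD, against 353, 264 and 339 CPM in WT-NCD (log2 fold change -2.20 ± 0.19, adjusted p = 6.91e-05), and Pdha1 of pyruvate dehydrogenase had 228, 218 and 191 CPM in WT-HFD, against 779, 727 and 874 CPM in WT-NCD (log2 fold change -1.90 ± 0.15, adjusted p = 5.67e-05). The 1 higher member was Pdk4, the kinase that switches pyruvate dehydrogenase off, with 322, 149 and 213 CPM in WT-HFD, against 30.1, 39.8 and 25.8 CPM in WT-NCD (log2 fold change 2.84 ± 0.36, adjusted p = 0.00028). Its WT-HFD libraries were all several times above the WT-NCD libraries.

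Branched-chain amino acid breakdown, another source of acetyl-CoA in fat cells, had 19 of 20 members lower and 0 higher (median -1.22). Mccc1 of leucine breakdown had 52.6, 57.7 and 46.1 CPM in WT-HFD, against 207, 191 and 220.5 CPM in WT-NCD (log2 fold change -1.98 ± 0.15, adjusted p = 5.33e-05), and Bcat2, the mitochondrial transaminase of the first step, had 73.8, 73.6 and 62.2 CPM in WT-HFD, against 264, 163 and 269 CPM in WT-NCD (log2 fold change -1.73 ± 0.22, adjusted p = 0.000283). Fatty acid oxidation was less uniform, with 12 of 22 lower and 1 higher. Acadvl, the very-long-chain dehydrogenase, had 112, 116 and 106 CPM in WT-HFD, against 288, 238 and 256 CPM in WT-NCD (log2 fold change -1.22 ± 0.12, adjusted p = 9.10e-05), while Cpt1a, the mitochondrial gate for fatty acids, had 264, 221 and 214 CPM in WT-HFD, against 114, 171 and 128 CPM in WT-NCD (log2 fold change 0.75 ± 0.20, adjusted p = 0.0155). Cpt1a was not called without WT-HFD 1 (adjusted p = 0.0502), WT-NCD 1 (adjusted p = 0.065) or WT-NCD 3 (adjusted p = 0.0552), each left out alone. Coasy, the last enzyme of coenzyme A synthesis, was one of the 10 lower genes with the smallest p-values under the naming rule, which kept to genes above the median level (34.6, 37.2 and 33.7 CPM in WT-HFD, against 126, 97.3 and 125 CPM in WT-NCD, log2 fold change -1.73 ± 0.13, adjusted p = 5.33e-05).

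Genes of adipocyte identity were lower in part. Among 19 adipocyte transcription factors and nuclear receptors 10 were lower, 6 with library totals, and 0 higher (median -0.46). Pparg, the master regulator of fat cells, had 160.3, 158 and 123 CPM in WT-HFD, against 319, 290.2 and 314 CPM in WT-NCD (log2 fold change -1.06 ± 0.12, adjusted p = 0.000186), Cebpa had 412, 402 and 301 CPM in WT-HFD, against 1024, 836 and 954 CPM in WT-NCD (log2 fold change -1.34 ± 0.15, adjusted p = 0.000177) and Klf15 had 36.9, 32.9 and 16.0 CPM in WT-HFD, against 121, 105 and 135 CPM in WT-NCD (log2 fold change -2.07 ± 0.25, adjusted p = 0.000226). Each was apart between diets. Of 18 insulin signalling genes 8 were lower (44.4%, against 18.4% of all genes tested) and 1 higher (5.56%, against 17.6%). With the replicate block 5 were lower, and the share of counts taken by the list overlapped between diets. Akt2, the insulin-activated kinase, and Irs1, the receptor substrate, had log2 fold changes of -1.19 and -1.31, whereas Insr, the receptor, had 149.6, 170.3 and 167 CPM in WT-HFD, against 155, 197 and 193 CPM in WT-NCD and did not pass (log2 fold change -0.16 ± 0.13, adjusted p = 0.368). The higher member was Ptpn1, the phosphatase that dephosphorylates the receptor (102, 120.3 and 179.6 CPM in WT-HFD, against 65.3, 67.8 and 75.5 CPM in WT-NCD, log2 fold change 0.95 ± 0.21, adjusted p = 0.00632). Glycogen genes were lower in 11 of 14 cases. Gbe1, the branching enzyme, had 40.9, 35.5 and 30.3 CPM in WT-HFD, against 218, 221 and 284 CPM in WT-NCD (log2 fold change -2.76 ± 0.22, adjusted p = 5.67e-05).

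Of 21 secreted adipocyte proteins 8 were lower (38.1%, against 18.4% of all genes tested) and 4 higher (19%, near the 17.6% of all genes). Cfd, the adipocyte complement factor adipsin, had 462, 1220.0 and 769.5 CPM in WT-HFD, against 12728, 7427 and 10182 CPM in WT-NCD (log2 fold change -3.63 ± 0.35, adjusted p = 9.07e-05), Retn, resistin, had 139, 312 and 200.0 CPM in WT-HFD, against 2158, 1274 and 1688 CPM in WT-NCD (log2 fold change -2.97 ± 0.36, adjusted p = 0.00022), and Rbp4, the retinol carrier, had 151, 142 and 105 CPM in WT-HFD, against 680.3, 450.3 and 608 CPM in WT-NCD (log2 fold change -2.13 ± 0.24, adjusted p = 0.000168). All 3 were apart. Adipoq, adiponectin, was lower by a smaller margin (log2 fold change -0.71 ± 0.23, adjusted p = 0.0345) and was not called without WT-HFD 2 (adjusted p = 0.051), WT-HFD 4 (adjusted p = 0.113), WT-NCD 1 (adjusted p = 0.093) or WT-NCD 3 (adjusted p = 0.115), each left out alone. With library totals it was not called. Lep, leptin, had 3126, 945 and 691 CPM in WT-HFD, against 917, 957 and 902 CPM in WT-NCD and did not pass (log2 fold change 0.78 ± 0.45, adjusted p = 0.203). WT-HFD 1 alone was high. Angptl4, an inhibitor of lipoprotein lipase and a target of PPAR receptors, had 929.5, 878 and 1058 CPM in WT-HFD, against 229.6, 185 and 265 CPM in WT-NCD (log2 fold change 2.08 ± 0.27, adjusted p = 0.000333). Sfrp5, a secreted Wnt antagonist, had 597, 177 and 236 CPM in WT-HFD, against 4.09, 3.33 and 2.89 CPM in WT-NCD, and was one of the 10 higher genes with the smallest p-values under the naming rule (log2 fold change 6.61 ± 0.51, adjusted p = 5.33e-05). Bmp3, a ligand of the TGF-beta family, and Peg3, an imprinted gene, belong to the list of expansion genes. Of its 14 members 4 were higher (28.6%, against 17.6% of all genes tested) and 1 lower (7.14%, against 18.4%). Bmp3 had 92.8, 78.0 and 73.9 CPM in WT-HFD, against 9.21, 7.76 and 11.9 CPM in WT-NCD (log2 fold change 3.08 ± 0.34, adjusted p = 0.000146) and Peg3 82.2, 65.6 and 61.7 CPM in WT-HFD, against 3.93, 9.35 and 7.996 CPM in WT-NCD (log2 fold change 3.30 ± 0.45, adjusted p = 0.000413).

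The other lower genes of that set of 10 had little spread, which a choice by smallest p-value favours. Tlcd2, a membrane protein of lipid composition, had 7.38, 7.79 and 7.28 CPM in WT-HFD, against 69.2, 52.4 and 55.4 CPM in WT-NCD (log2 fold change -2.98 ± 0.19, adjusted p = 5.33e-05). Syt12, a synaptotagmin, had 21.05, 15.2 and 12.1 CPM in WT-HFD, against 163, 154 and 149.6 CPM in WT-NCD (log2 fold change -3.27 ± 0.24, adjusted p = 5.33e-05), and Igfals, a carrier subunit of circulating insulin-like growth factor, had 27.5, 19.4 and 16.8 CPM in WT-HFD, against 127, 107 and 126 CPM in WT-NCD (log2 fold change -2.49 ± 0.19, adjusted p = 5.33e-05). Nos3, endothelial nitric oxide synthase, had 32.3, 36.6 and 35.7 CPM in WT-HFD, against 110.0, 122 and 126 CPM in WT-NCD (log2 fold change -1.77 ± 0.13, adjusted p = 5.33e-05). Among 16 endothelial markers 3 were higher (18.8%, near the 17.6% of all genes tested), 8 with library totals, and 0 were lower. Pecam1, the endothelial adhesion molecule, had 326, 289.8 and 329 CPM in WT-HFD, against 204, 218 and 234 CPM in WT-NCD (log2 fold change 0.53 ± 0.13, adjusted p = 0.00946). Traf4, an adaptor of TNF-family receptors, had 9.26, 12.2 and 13.3 CPM in WT-HFD, against 39.6, 37.0 and 39.7 CPM in WT-NCD (log2 fold change -1.74 ± 0.13, adjusted p = 5.33e-05).

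Macrophage genes were mostly higher. Of 23 macrophage surface and resident markers 14 were higher and 1 lower (median 1.77), and the list took 0.589%, 0.462% and 0.623% of counts in WT-HFD, against 0.154%, 0.147% and 0.148% in WT-NCD. Fcgr3, an Fc receptor, had 203, 141 and 218 CPM in WT-HFD, against 42.1, 38.7 and 37.7 CPM in WT-NCD (log2 fold change 2.24 ± 0.27, adjusted p = 0.000201), Mrc1, the mannose receptor, 353, 352 and 568 CPM in WT-HFD, against 124, 140.4 and 110.1 CPM in WT-NCD (log2 fold change 1.77 ± 0.22, adjusted p = 0.000232), and Itgam, the CD11b integrin of monocytes, macrophages and neutrophils, 298, 389.9 and 524 CPM in WT-HFD, against 57.5, 68.8 and 89.0 CPM in WT-NCD (log2 fold change 2.49 ± 0.43, adjusted p = 0.00148). No WT-HFD library of these 3 genes reached down to a WT-NCD library. Timd4, a receptor of resident macrophages that binds dying cells, was the lower member (2.41, 4.14 and 2.07 CPM in WT-HFD, against 8.57, 8.21 and 8.42 CPM in WT-NCD, log2 fold change -1.54 ± 0.47, adjusted p = 0.0264). It was not called without WT-HFD 1 (adjusted p = 0.079), WT-HFD 4 (adjusted p = 0.0924), WT-NCD 1 (adjusted p = 0.0611), WT-NCD 2 (adjusted p = 0.051) or WT-NCD 3 (adjusted p = 0.058), each left out alone, and not called with library totals. Cd163 and Lyve1, also resident markers, did not pass, with log2 fold changes of -0.37 and 0.08. The list had 6 members higher without WT-NCD 1 and 2.

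Genes of lipid-associated macrophages, the cells that crown dead adipocytes, were higher in 15 of 22 cases and lower in 1 (median 1.88), with 10 higher without WT-NCD 1 and 2. Spp1, osteopontin, had 67.3, 807 and 1367 CPM in WT-HFD, against 5.47, 3.96 and 5.80 CPM in WT-NCD and the largest rise among the genes that met the naming rule (log2 fold change 7.20 ± 1.01, adjusted p = 0.000484). Gpnmb, a lysosomal glycoprotein of lipid-loaded macrophages, had 1568, 249 and 273 CPM in WT-HFD, against 28.3, 37.6 and 17.97 CPM in WT-NCD (log2 fold change 4.64 ± 0.75, adjusted p = 0.00103). Mmp12, macrophage elastase, had 909, 90.3 and 88.3 CPM in WT-HFD, against 13.2, 14.2 and 10.9 CPM in WT-NCD (log2 fold change 4.83 ± 0.87, adjusted p = 0.00184), and Atp6v0d2, a macrophage and osteoclast subunit of the proton pump, had 334, 38.3 and 52.4 CPM in WT-HFD, against 3.76, 4.15 and 1.56 CPM in WT-NCD (log2 fold change 5.49 ± 0.84, adjusted p = 0.000789). All 4 were apart between diets, which the naming rule required, but by very different margins in single WT-HFD libraries. Trem2, the lipid-sensing receptor that marks these cells, had 196, 67.4 and 85.5 CPM in WT-HFD, against 18.3, 12.5 and 10.9 CPM in WT-NCD (log2 fold change 3.06 ± 0.59, adjusted p = 0.00258). The lower member was Lpl, and the 6 that did not pass were Fabp4, Fabp5, Lgals1, Cd36, Apoe and Dcstamp. Adipocytes express several members of the list as well. Which cells set the level of any member, higher or lower, was not tested. The list took 4.63%, 3.34% and 3.33% of counts in WT-HFD, against 3.90%, 3.16% and 3.86% in WT-NCD and its share overlapped.

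The promoters of Spp1 (chr5:104434861-104435160, plus strand) and Mmp12 (chr9:7344147-7344446, plus strand) are printed because both genes were higher in every WT-HFD library and both windows hold the letters GAGGAAGT, bound by PU.1, the transcription factor of the myeloid lineage. Capitals mark the match, which starts at base -113 in Spp1 and at base -88 in Mmp12, relative to the start site. The Spp1 window also holds a match to the sterol element, which does not overlap the marked letters. In Mmp12 the letters lie on the opposite strand, so the printed strand reads as their reverse complement. On either strand these letters stood in 2 of 14 lipid-associated macrophage promoters (14.3%) and 2 of 16 macrophage surface promoters (12.5%), against 3.83% of all tested genes with a window. Of the 2 macrophage surface genes, Fcgr4 was called higher and Retnla did not pass. Among genes called higher the share was 151 of 2262 (6.68%), among genes called lower 65 of 2397 (2.71%), and among genes that did not pass 274 of 8124 (3.37%). These shares are a description of letters, with no test.
Spp1: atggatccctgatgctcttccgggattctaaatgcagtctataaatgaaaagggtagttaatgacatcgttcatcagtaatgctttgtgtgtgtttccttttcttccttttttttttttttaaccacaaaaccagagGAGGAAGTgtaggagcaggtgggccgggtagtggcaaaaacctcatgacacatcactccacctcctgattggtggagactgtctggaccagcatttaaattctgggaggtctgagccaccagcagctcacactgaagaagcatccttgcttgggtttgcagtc
Mmp12: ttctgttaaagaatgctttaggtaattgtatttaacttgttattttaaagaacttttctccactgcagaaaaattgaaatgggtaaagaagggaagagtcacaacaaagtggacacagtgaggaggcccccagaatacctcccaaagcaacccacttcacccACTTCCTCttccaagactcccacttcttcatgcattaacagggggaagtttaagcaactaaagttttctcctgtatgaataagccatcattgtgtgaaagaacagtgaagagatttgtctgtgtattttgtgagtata

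Lysosomal genes were also mostly higher. Of 30 lysosome and V-ATPase genes 23 were higher and 0 lower (median 1.23), and the list took 2.998%, 2.04% and 2.37% of counts in WT-HFD, against 1.002%, 0.892% and 0.989% in WT-NCD. Ctss, cathepsin S of antigen-presenting cells, had 1606, 1040.5 and 1397 CPM in WT-HFD, against 199.6, 191 and 124 CPM in WT-NCD (log2 fold change 2.98 ± 0.46, adjusted p = 0.000772), Lipa, lysosomal acid lipase, 818, 248 and 266 CPM in WT-HFD, against 78.6, 92.5 and 86.2 CPM in WT-NCD (log2 fold change 2.37 ± 0.39, adjusted p = 0.00119), and Gla, alpha-galactosidase, 69.8, 43.0 and 59.9 CPM in WT-HFD, against 16.3, 12.8 and 11.8 CPM in WT-NCD (log2 fold change 2.08 ± 0.23, adjusted p = 0.000154). Lamp1, a membrane protein of all lysosomes, had 1215, 970.3 and 991 CPM in WT-HFD, against 1003, 913 and 958 CPM in WT-NCD and did not pass (log2 fold change 0.14 ± 0.12, adjusted p = 0.394) except with library totals, and neither did Tfeb, a transcription factor of lysosomal genes (log2 fold change 0.11). Cholesterol export and uptake of dead cells moved too: Abcg1, the sterol exporter, had 288, 207 and 243 CPM in WT-HFD, against 43.3, 47.3 and 35.1 CPM in WT-NCD (log2 fold change 2.55 ± 0.23, adjusted p = 7.80e-05), Itgav, an integrin that binds apoptotic cells through bridging proteins, 102, 94.5 and 101 CPM in WT-HFD, against 33.3, 37.5 and 42.7 CPM in WT-NCD (log2 fold change 1.39 ± 0.12, adjusted p = 7.68e-05), and Mertk, a receptor for the same cargo, 87.0, 62.0 and 83.4 CPM in WT-HFD, against 56.0, 60.9 and 84.6 CPM in WT-NCD without passing (log2 fold change 0.21 ± 0.20, adjusted p = 0.454). Manba, lysosomal beta-mannosidase, was another of the 10 higher genes with the smallest p-values (48.9, 45.4 and 44.0 CPM in WT-HFD, against 22.98, 23.1 and 21.1 CPM in WT-NCD, log2 fold change 1.04 ± 0.09, adjusted p = 6.92e-05). The lysosome list had 9 members higher without WT-NCD 1 and 2.

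Chemokine and cytokine genes were mostly higher, and none of those listed was lower. Of 25 chemokines and receptors 18 were higher (median 1.96), and of 25 cytokines and receptors 22 (median 1.71). Ccl9, a chemokine for myeloid cells, had 732, 649 and 1058 CPM in WT-HFD, against 108, 84.9 and 92.4 CPM in WT-NCD (log2 fold change 3.10 ± 0.39, adjusted p = 0.000274), and Ccl2, the monocyte attractant, 55.0, 111 and 184 CPM in WT-HFD, against 14.99, 11.95 and 11.4 CPM in WT-NCD (log2 fold change 3.19 ± 0.57, adjusted p = 0.00174). The diets did not overlap. Tnfrsf1b, a TNF receptor, had 195, 172 and 217 CPM in WT-HFD, against 50.2, 58.3 and 46.7 CPM in WT-NCD (log2 fold change 1.91 ± 0.25, adjusted p = 0.000332), Il10rb 158, 141 and 187 CPM in WT-HFD, against 60.8, 57.3 and 63.7 CPM in WT-NCD (log2 fold change 1.42 ± 0.12, adjusted p = 6.92e-05), and Tnf itself stayed at a few CPM with 4.58, 4.03 and 5.10 CPM in WT-HFD, against 1.16, 1.04 and 0.813 CPM in WT-NCD (log2 fold change 2.19 ± 0.32, adjusted p = 0.000652). The interferon-linked chemokines Cxcl9 and Cxcl10 did not pass, with log2 fold changes of -0.30 and 0.51. Without WT-NCD 1 and 2 the chemokine list had 5 members higher and the cytokine list 6.

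Receptors of the innate response were mostly higher. Of 22 Toll-like receptor and NF-kappaB genes 18 were higher, 8 without WT-NCD 1 and 2, with Tlr4, the lipopolysaccharide receptor, at 96.7, 102.6 and 129.6 CPM in WT-HFD, against 39.3, 40.8 and 43.8 CPM in WT-NCD (log2 fold change 1.41 ± 0.15, adjusted p = 0.000118) and Tlr13, a sensor of bacterial ribosomal RNA, at 129, 93.8 and 135 CPM in WT-HFD, against 12.7, 14.8 and 10.5 CPM in WT-NCD (log2 fold change 3.23 ± 0.40, adjusted p = 0.000262). Of 24 interferon-stimulated genes 3 were higher (12.5%, against 17.6% of all genes tested). That count moved with the fit: it was 7 in a fit of the 6 WT libraries alone, 6 without WT-HFD 1, 5 with library totals, 1 without any other single library and 0 with the replicate block. Isg15 had 32.1, 88.4 and 106 CPM in WT-HFD, against 60.7, 49.3 and 25.6 CPM in WT-NCD (log2 fold change 0.74 ± 0.59, adjusted p = 0.363). In the class II list 8 of 16 members were higher (50%, against 17.6% of all genes tested), and fewer without WT-NCD 1 and 2. Among them was the costimulatory ligand Cd86 (15.5, 18.2 and 21.3 CPM in WT-HFD, against 9.02, 9.45 and 7.30 CPM in WT-NCD, log2 fold change 1.09 ± 0.18, adjusted p = 0.00103). The class II chains H2-Aa, H2-Ab1 and H2-Eb1 did not pass, though all 3 chains were called higher with library totals. H2-Aa had 1054, 339.7 and 433 CPM in WT-HFD, against 346, 292 and 245 CPM in WT-NCD (log2 fold change 1.05 ± 0.41, adjusted p = 0.0664), with WT-HFD 1 alone well above the rest.

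T cell markers gave no call. Of 14 T cell markers 0 were higher and 0 lower by edgeR or by DESeq2, and 0 had an unadjusted p below 0.05 in edgeR. Cd3e, a chain of the T cell receptor complex, had 1.001, 2.61 and 2.46 CPM in WT-HFD, against 2.12, 2.01 and 1.37 CPM in WT-NCD (log2 fold change 0.15 ± 0.42, adjusted p = 0.815), and Cd8a had 2.13, 1.99 and 3.29 CPM in WT-HFD, against 1.78, 1.60 and 0.845 CPM in WT-NCD (log2 fold change 0.81 ± 0.55, adjusted p = 0.285). At these levels and with this spread no difference was detectable, which does not show that the diets were alike. Of 11 mast cell and eosinophil markers 2 were higher (18.2%, near the 17.6% of all genes tested) and 0 lower. The median log2 fold change of that list was -0.66. The 2 were the eosinophil markers Siglecf and Ccr3, both near 0 in WT-NCD: Siglecf had 1.68, 1.31 and 1.45 CPM in WT-HFD, against 0.138, 0.0495 and 0.276 CPM in WT-NCD (log2 fold change 3.24 ± 0.70, adjusted p = 0.00493) and Ccr3 2.13, 1.33 and 2.12 CPM in WT-HFD, against 0.069, 0.264 and 0 CPM in WT-NCD (log2 fold change 4.04 ± 0.91, adjusted p = 0.00623).

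The 3 WT-HFD libraries were not alike. The genes that show this were picked after their values were seen, and the differences between single WT-HFD libraries carry no test. WT-HFD 1 was highest in Gpnmb, Mmp12, Atp6v0d2, Trem2 and Itgax, with Itgax, the CD11c integrin, at 199, 41.8 and 50.3 CPM in WT-HFD, against 9.56, 11.3 and 7.17 CPM in WT-NCD. Spp1, of the same lipid-associated macrophage list, went the other way and was lowest in WT-HFD 1 among the WT-HFD libraries. WT-HFD 2 and 4 were highest in genes of acute inflammation. Il1b, interleukin 1 beta, had 1.21, 74.4 and 154 CPM in WT-HFD, against 0.983, 1.07 and 1.37 CPM in WT-NCD (log2 fold change 6.07 ± 1.34, adjusted p = 0.00543), so WT-HFD 1 lay within the WT-NCD range. Cxcl2, a neutrophil attractant, had 4.13, 58.5 and 219 CPM in WT-HFD, against 1.10, 0.264 and 1.09 CPM in WT-NCD (log2 fold change 6.84 ± 1.39, adjusted p = 0.0036), and Arg1, arginase 1, had 15.02, 184 and 336 CPM in WT-HFD, against 7.02, 3.21 and 11.1 CPM in WT-NCD (log2 fold change 4.65 ± 1.07, adjusted p = 0.00679). Neutrophil transcripts went the same way: S100a8 had 4.58, 28.9 and 89.5 CPM in WT-HFD, against 1.67, 1.42 and 0.796 CPM in WT-NCD, Cxcr2 0.123, 12.2 and 31.1 CPM in WT-HFD, against 0.138, 0.165 and 0.0975 CPM in WT-NCD and Csf3r, the receptor of granulocyte colony-stimulating factor, 18.6, 76.8 and 169 CPM in WT-HFD, against 8.26, 10.2 and 5.98 CPM in WT-NCD. The 12 listed neutrophil markers took 0.00247%, 0.0200% and 0.0542% of counts in WT-HFD, against 0.00108%, 0.00110% and 0.000768% in WT-NCD. Of the 8 that passed the filter on low counts 6 were called higher and 2 did not pass the test. Of those 2, 1 was lower with an unadjusted p below 0.05 in edgeR. The lowest log2 fold change of the 8 was -3.26. Camp and Elane, granule proteins of immature neutrophils, stayed below 1 CPM in all 6 libraries. Whether neutrophil content has a part in the cytokine values was not tested.

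Leaving these libraries out changed the counts. Without WT-HFD 2 and 4 the chemokine list had 6 members higher in place of 18, the cytokine list 8 in place of 22 and the neutrophil list 0 in place of 6, with 1 WT-HFD library left. That left-out pair was chosen after the data were seen. In the same fit the lipid-associated macrophage list had 17 members higher, the lysosome list 21 and the fatty acid synthesis list 15 lower. Without WT-HFD 1 those lists had 13 and 22 members higher and 16 lower, and the cell cycle list had 18 of its 23. Without WT-HFD 4 alone the cytokine list had 13 members higher.

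**Figure D3:**
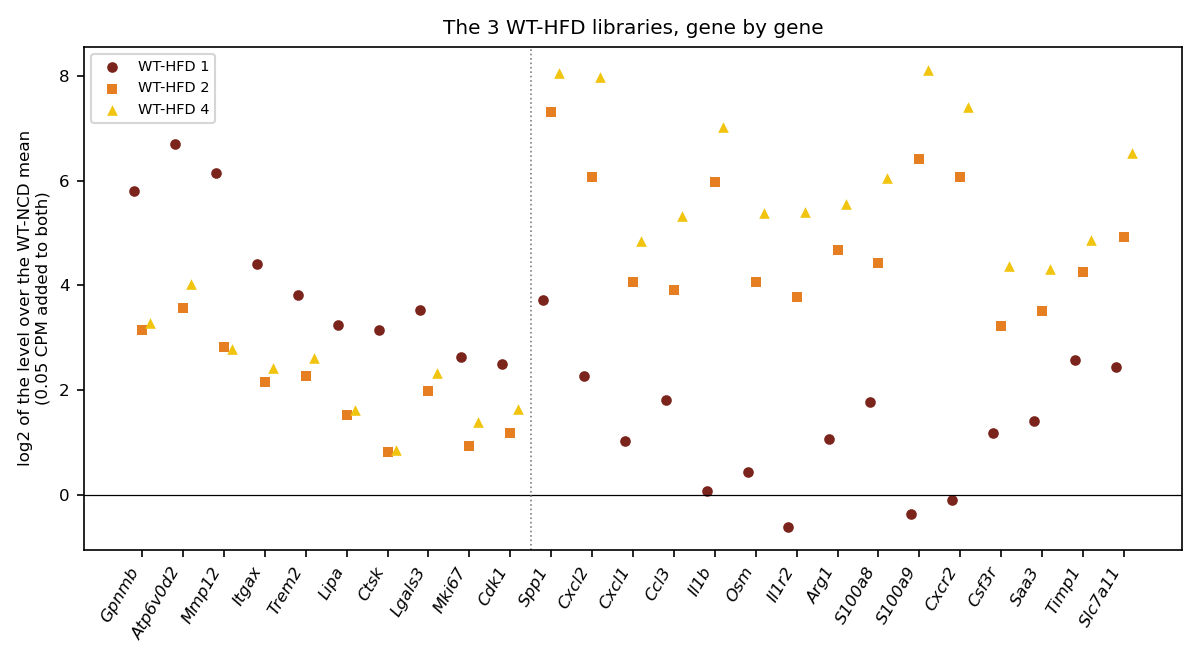
Level of 25 genes in each WT-HFD library over the mean of the WT-NCD libraries (log2 of the ratio, 0.05 CPM added to both). Genes left of the dotted line, of lipid-associated macrophages, lysosomes and the cell cycle, are highest in WT-HFD 1. Genes right of it are highest in WT-HFD 4. They are mostly of acute inflammation and neutrophils, but include Spp1 of the lipid-associated macrophage list, Timp1 and Slc7a11. Il1r2, S100a9 and Cxcr2 lie below the WT-NCD mean in WT-HFD 1, and Il1b lies close to it. The genes were chosen after their values were seen.

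Cell cycle genes were higher in 23 of 31 cases and lower in 0 (median 1.29), with 4 higher without WT-NCD 1 and 2. Mki67, the proliferation marker, had 49.9, 15.3 and 21.1 CPM in WT-HFD, against 7.88, 8.98 and 6.97 CPM in WT-NCD (log2 fold change 1.85 ± 0.42, adjusted p = 0.00597) and Mcm6, a helicase subunit loaded before DNA replication, had 62.7, 39.5 and 44.3 CPM in WT-HFD, against 24.1, 23.8 and 20.4 CPM in WT-NCD (log2 fold change 1.10 ± 0.18, adjusted p = 0.00115). Mki67 was highest in WT-HFD 1, the library with most Trem2 and Mmp12. Cdk6, a kinase of the G1 phase that was not on the list, had 58.8, 47.4 and 54.3 CPM in WT-HFD, against 13.5, 17.6 and 14.9 CPM in WT-NCD (log2 fold change 1.80 ± 0.14, adjusted p = 5.64e-05). The bulk data do not say which cells carried these transcripts.

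Matrix genes made up the other large rise. Of 17 collagens 12 were higher and 1 lower (median 1.10), and of 33 matrix modifiers and matricellular genes 21 were higher and 1 lower (median 1.28). Col1a1, of fibrillar collagen I, had 595, 693 and 573 CPM in WT-HFD, against 155, 180.4 and 149 CPM in WT-NCD (log2 fold change 1.94 ± 0.19, adjusted p = 8.87e-05), and Col12a1, which sits on the fibrils, had 73.5, 49.9 and 79.6 CPM in WT-HFD, against 6.11, 10.7 and 5.31 CPM in WT-NCD (log2 fold change 3.19 ± 0.37, adjusted p = 0.000185). Col15a1, of the basement membrane zone, was the lower collagen (527, 374 and 275 CPM in WT-HFD, against 708, 1010.1 and 781 CPM in WT-NCD, log2 fold change -1.09 ± 0.27, adjusted p = 0.0102). The main chains of basement membrane collagen IV did not pass, with log2 fold changes of 0.39 for Col4a1 and 0.50 for Col4a2, and both were called higher with library totals.

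Crosslinking and matricellular genes were also higher. Lox, lysyl oxidase, had 285, 210.1 and 449 CPM in WT-HFD, against 19.9, 37.1 and 50.8 CPM in WT-NCD (log2 fold change 3.13 ± 0.40, adjusted p = 0.000287). Thbs1, thrombospondin 1, an activator of latent TGF-beta, had 487, 597 and 962 CPM in WT-HFD, against 24.8, 28.1 and 42.3 CPM in WT-NCD (log2 fold change 4.42 ± 0.48, adjusted p = 0.000142), and Tnc, tenascin C, had 32.7, 27.5 and 35.7 CPM in WT-HFD, against 8.07, 9.96 and 10.7 CPM in WT-NCD (log2 fold change 1.74 ± 0.16, adjusted p = 8.49e-05). Ccn5, a matricellular protein known as WISP2, had 184, 120.3 and 216 CPM in WT-HFD, against 4.80, 3.63 and 3.80 CPM in WT-NCD (log2 fold change 5.41 ± 0.47, adjusted p = 6.92e-05). Each of these 4 was at least 2 times higher in every WT-HFD library than in any WT-NCD library. The fibulins Fbln2 and Fbln5, elastic fibre proteins, were also among those 10 higher genes: Fbln2 had 528, 600.2 and 714 CPM in WT-HFD, against 107, 128 and 107 CPM in WT-NCD (log2 fold change 2.43 ± 0.16, adjusted p = 5.33e-05) and Fbln5 142, 138 and 128 CPM in WT-HFD, against 41.0, 43.7 and 38.4 CPM in WT-NCD (log2 fold change 1.73 ± 0.15, adjusted p = 6.92e-05). Timp1, an inhibitor of metalloproteinases, had 49.7, 159 and 243 CPM in WT-HFD, against 10.9, 7.30 and 6.60 CPM in WT-NCD (log2 fold change 4.18 ± 0.81, adjusted p = 0.00271), and Timp4, the member of that family best known in fat, was lower (148, 79.2 and 52.8 CPM in WT-HFD, against 267, 177 and 288 CPM in WT-NCD, log2 fold change -1.39 ± 0.32, adjusted p = 0.00678). The matrix modifier list had 16 members higher without WT-NCD 1 and 2 and the collagen list 7.

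The remaining genes of the 10 with the smallest p-values among the higher ones were not on any list. Slc25a24, a mitochondrial carrier of ATP-magnesium and phosphate, had 78.5, 65.3 and 72.0 CPM in WT-HFD, against 25.3, 27.7 and 25.3 CPM in WT-NCD (log2 fold change 1.46 ± 0.10, adjusted p = 5.33e-05). Fblim1, an adaptor of focal adhesions, had 89.5, 57.1 and 82.5 CPM in WT-HFD, against 14.5, 14.5 and 17.2 CPM in WT-NCD (log2 fold change 2.31 ± 0.17, adjusted p = 5.33e-05). Spred1, an inhibitor of the Ras pathway, had 111, 109 and 126 CPM in WT-HFD, against 54.2, 57.1 and 60.9 CPM in WT-NCD (log2 fold change 1.01 ± 0.09, adjusted p = 7.68e-05). They were picked by a rule that required the groups to be apart and took the smallest p-values. Their separation between the diets is therefore not a further result.

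Growth factors of fibrosis were higher in part. Of 22 TGF-beta and activin genes 8 were higher (36.4%, against 17.6% of all genes tested) and 2 lower (9.09%, against 18.4%). The counts were 5 higher without WT-NCD 1 and 0 lower without WT-HFD 2, WT-HFD 4 or any one WT-NCD library. Tgfb1 had 135, 93.4 and 111 CPM in WT-HFD, against 49.6, 51.9 and 46.7 CPM in WT-NCD (log2 fold change 1.20 ± 0.16, adjusted p = 0.000359). Progenitor and fibroblast markers were higher in 4 of 15 cases (26.7%, against 17.6% of all genes tested), 8 with library totals, with Pdgfra at 67.1, 103.01 and 89.5 CPM in WT-HFD, against 47.5, 59.5 and 43.5 CPM in WT-NCD (log2 fold change 0.79 ± 0.17, adjusted p = 0.00439) and Dcn, decorin, at 844, 812 and 468 CPM in WT-HFD, against 989, 955 and 787 CPM in WT-NCD without passing (log2 fold change -0.36 ± 0.30, adjusted p = 0.379). Pericyte and smooth muscle markers were lower in 6 of 11 cases. Cnn1, a smooth muscle protein, had 0.470, 2.38 and 1.005 CPM in WT-HFD, against 81.5, 96.6 and 17.2 CPM in WT-NCD (log2 fold change -5.63 ± 1.06, adjusted p = 0.00233), with WT-NCD 1 and 2 above WT-NCD 3 as for the seminal vesicle transcripts, while Rgs5, a pericyte marker, had 254, 200.1 and 151 CPM in WT-HFD, against 278, 290.1 and 372 CPM in WT-NCD with no such gap (log2 fold change -0.63 ± 0.18, adjusted p = 0.0181). Rgs5 was not called without WT-HFD 2 (adjusted p = 0.0511), WT-HFD 4 (adjusted p = 0.0518) or WT-NCD 3 (adjusted p = 0.0737), each left out alone. It was not called with library totals either. Without WT-NCD 1 and 2 the list had 2 members lower.

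Stress lists had members called in both directions, several at shares near those of all genes tested (17.6% higher and 18.4% lower). In the unfolded protein and integrated stress response list 7 of 22 were higher (31.8%) and 4 lower (18.2%). The higher count was 2 without WT-HFD 2 or without WT-HFD 4 and 3 without any one of the WT-NCD libraries, and the lower count was 2 without WT-HFD 4, WT-NCD 1 or WT-NCD 2. Atf3, a stress-induced transcription factor, had 161, 54.8 and 62.8 CPM in WT-HFD, against 10.8, 10.3 and 10.7 CPM in WT-NCD (log2 fold change 3.13 ± 0.47, adjusted p = 0.000684), and Asns, asparagine synthetase, had 22.2, 37.9 and 34.0 CPM in WT-HFD, against 109, 89.4 and 110.4 CPM in WT-NCD (log2 fold change -1.72 ± 0.19, adjusted p = 0.000146). Of 20 hypoxia genes 4 were higher and 5 lower (25%), both near those shares, and 8 were higher without WT-HFD 1. With library totals 9 were higher and 2 lower. Vegfa had 201, 260.1 and 259.7 CPM in WT-HFD, against 292, 297 and 425 CPM in WT-NCD (log2 fold change -0.49 ± 0.17, adjusted p = 0.0471) and was not called without WT-HFD 1 (adjusted p = 0.143), WT-HFD 2 (adjusted p = 0.0674), WT-HFD 4 (adjusted p = 0.0677) or WT-NCD 3 (adjusted p = 0.191), each left out alone. Library totals ended its call. Hif1a had 133, 183 and 238 CPM in WT-HFD, against 131, 166 and 133 CPM in WT-NCD (log2 fold change 0.36 ± 0.18, adjusted p = 0.14) and was called higher with library totals. Among Nrf2 targets and iron genes 6 of 24 were higher (25%) and 8 lower (33.3%), with 5 lower without WT-HFD 4, and 12 higher and 4 lower with library totals. Hmox1, heme oxygenase 1, had 146, 141 and 206 CPM in WT-HFD, against 47.7, 41.9 and 38.6 CPM in WT-NCD (log2 fold change 1.94 ± 0.20, adjusted p = 0.000121), Sod3, the extracellular superoxide dismutase, 904, 1188 and 1407 CPM in WT-HFD, against 386, 333 and 374 CPM in WT-NCD (log2 fold change 1.68 ± 0.20, adjusted p = 0.000226), and Gsta3, a glutathione transferase, 24.4, 22.5 and 15.9 CPM in WT-HFD, against 259.8, 171 and 263 CPM in WT-NCD (log2 fold change -3.46 ± 0.36, adjusted p = 0.000121). The cytosolic ribosomal proteins gave a contrast to these lists: 0 of 25 passed in either direction by edgeR, 1 of them with an unadjusted p below 0.05, and 1 was lower by DESeq2.

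**Figure D4:**
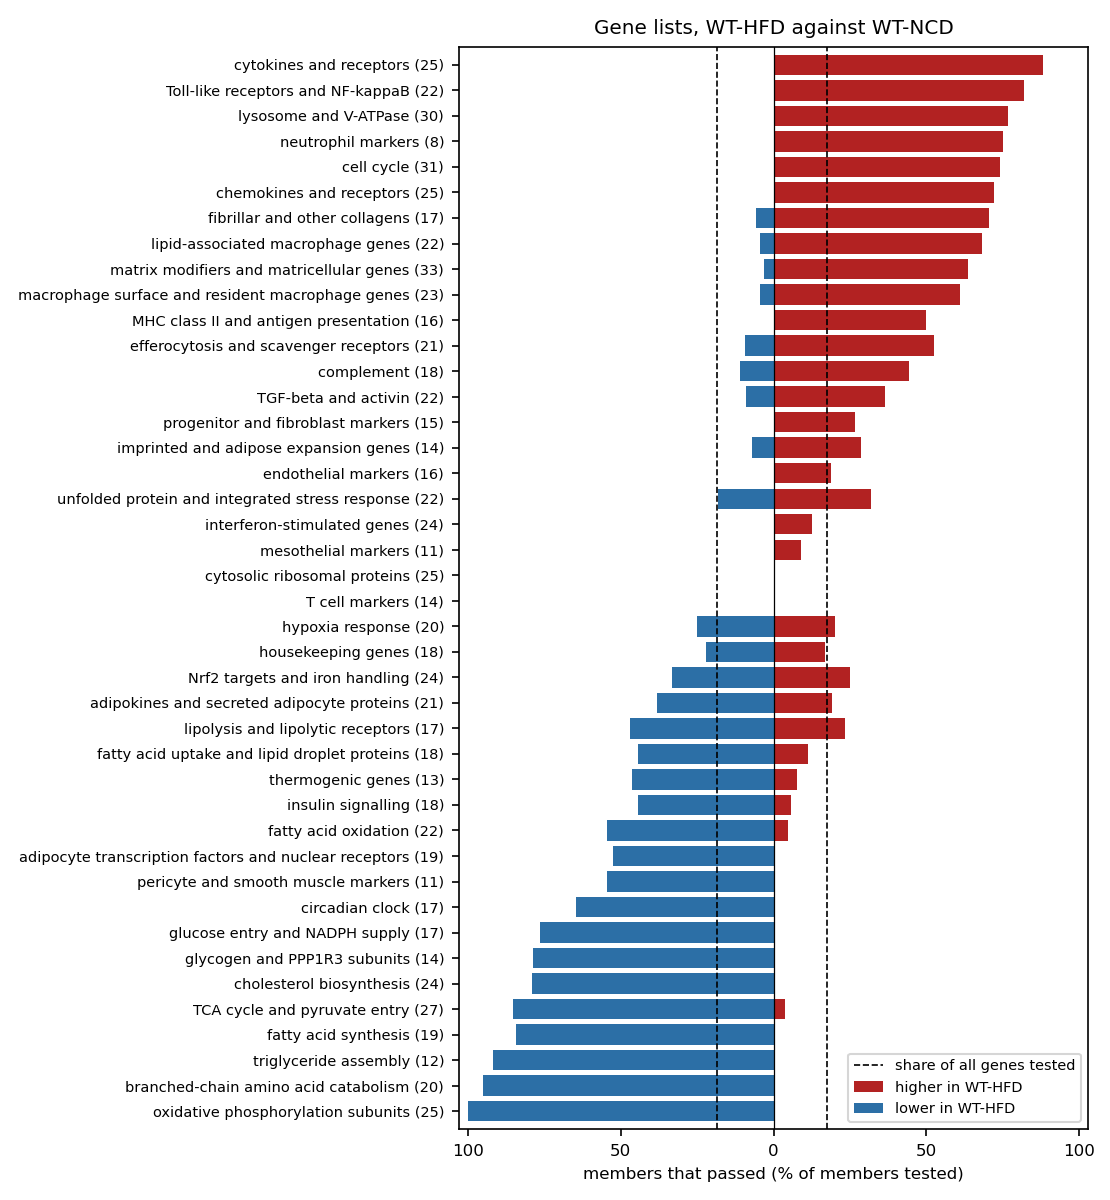
Share of the members tested that were called higher (red, to the right) or lower (blue, to the left) in WT-HFD, by gene list, with the number of members tested in brackets. Dashed lines mark the shares over all genes tested, 17.6% higher and 18.4% lower. Immune, lysosome, matrix and cell cycle lists lie at the top and mitochondrial and lipid synthesis lists at the bottom, while T cell markers and ribosomal proteins have no member called.

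**Figure D5:**
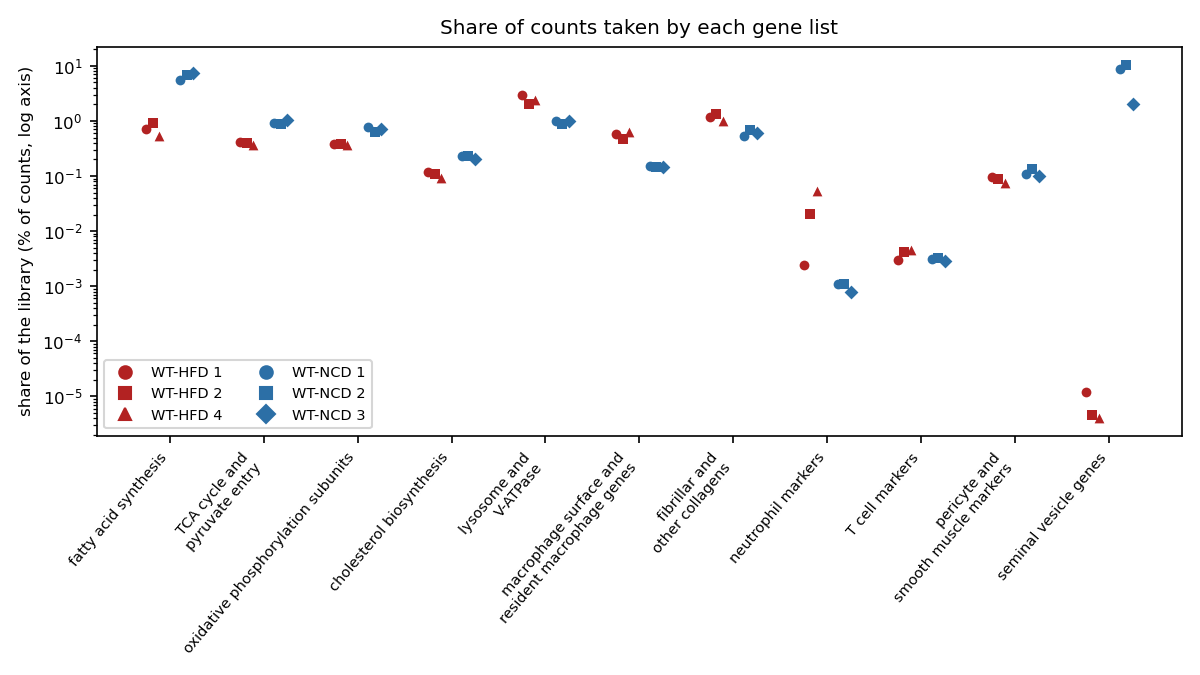
Share of all counts taken by 11 gene lists in each WT library (%, log axis), with WT-HFD in red left of WT-NCD in blue. Fatty acid synthesis genes took 0.541% to 0.901% of counts in WT-HFD, against 5.42% to 7.29% in WT-NCD. Seminal vesicle genes are near 0 in all 3 WT-HFD libraries and lower in WT-NCD 3 than in WT-NCD 1 and 2.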

How the data were processed

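The authors sequenced poly(A) RNA libraries (TruSeq Stranded mRNA LT per the labels) on an Illumina NovaSeq and, per the labels, used bcl2fastq 2.20.0, Trimmomatic, HISAT2 2.1.0, StringTie 1.3.4d and DESeq2 with the mm10 build. The deposited table holds raw read counts per Entrez gene for 12 libraries, 3 in each of 4 groups. The column numbered 4 was assigned to WT-HFD by its group name. Library totals ran from 47185990 to 73167755 counts, which sets the counting precision of low genes.

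Symbols came from RefSeq and matched 19745 of 19792 genes. Genes were filtered with filterByExpr (minimum count 10, total 15), scaled by TMM and tested with edgeR 4.0.16 (R 4.3.3, quasi-likelihood test, Benjamini-Hochberg adjustment, all 12 libraries in 1 fit with 8 residual degrees of freedom). The test was also run on simulated counts, drawn with the same mean in every group except for genes changed on purpose. Those counts did not carry the seminal vesicle difference of WT-NCD, so that run does not show how the test behaves with it. Whether counting used strand is not given in the sources used here, so overlapping and near-identical genes are uncertain. Genes named are the 10 largest changes and 10 smallest p-values per direction (adjusted p below 0.05, average level above the median, groups apart, off the lists of neighbouring organs), up to 4 leading members and best-known members of each list, and genes the study measured otherwise, plus genes said to be picked after their values were seen. Some genes that met this rule are not reported here. The members and gene lists were chosen with earlier results of these data known. Alternatives were DESeq2 1.42.0 and its size factors, library totals, no filter, WT libraries alone, a replicate block, leaving out WT libraries or listed genes, and other call rules.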

Additional observations from a re-analysis of the deposited data

Results flagged for a closer look

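The diet effect of 111 of the genes named here differed between WT and KO mice (edgeR's test of the difference, adjusted p below 0.05), as did that of 2893 of 16352 genes (17.7%). The same diet contrast between KO-HFD and KO-NCD had 5 genes that passed (0.0306%). Values are the WT log2 fold change minus the KO one, each with WT-HFD over WT-NCD and KO-HFD over KO-NCD, so a negative value is a larger fall or smaller rise in WT. The seminal vesicle transcripts of the WT-NCD libraries lie in the same contrast. The KO chow libraries KO-NCD 1, 2 and 3 were also uneven in some immune lists. Chemokine and receptor genes took 0.268%, 0.0917% and 0.137% of their counts, and interferon-stimulated genes 0.623%, 0.204% and 0.382%. What this spread does to the KO calls and to the immune values below was not tested.

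Fatty acid, triglyceride and cholesterol synthesis genes gave -4.85 for Fasn, -2.81 for Acaca, -2.65 for Acly, -3.70 for Acss2, -3.07 for Slc25a1, -2.81 for Elovl6, -3.41 for Me1, -3.25 for Scd1, -4.22 for Thrsp, -1.70 for Srebf1, -1.31 for Mlxipl, -3.82 for Pnpla3, -3.26 for Angptl8, -3.32 for Agpat2, -3.24 for Mogat1, -1.59 for Bscl2, -2.16 for Acat2, -2.001 for Fdps, -2.23 for Pmvk, -1.52 for Nsdhl and -1.61 for Insig1. Mitochondrial and glucose genes gave -2.71 for Pcx, -1.41 for Pdha1, -2.003 for Mpc1, 2.13 for Pdk4, -1.39 for Cyc1, -1.45 for Bcat2, -1.55 for Mccc1, -1.20 for Acadvl, -1.43 for Coasy, -2.41 for Tkt, -1.49 for Slc2a4, -2.13 for Gbe1 and -0.89 for Gapdh. Adipocyte identity, adipokine and lipolysis genes gave -0.77 for Pparg, -0.93 for Cebpa, -1.65 for Klf15, -1.33 for Akt2, 1.09 for Ptpn1, -1.71 for Adrb3, -1.07 for Lipe, -1.03 for Plin1, -2.91 for Cfd, -2.89 for Retn, -2.64 for Rbp4, 3.35 for Sfrp5 and 1.52 for Bmp3. Macrophage, lysosome and sterol export genes gave 1.68 for Csf1r, 2.44 for Fcgr3, 2.89 for Itgam, 1.92 for Mrc1, 2.82 for Itgax, 3.73 for Gpnmb, 4.38 for Atp6v0d2, 7.54 for Spp1, 2.26 for Lipa, 3.26 for Ctss, 2.03 for Gla, 0.86 for Manba, 2.18 for Abcg1, 1.29 for Itgav and 4.59 for Arg1. Cytokine, chemokine, receptor and neutrophil genes gave 2.46 for Ccl2, 3.23 for Ccl9, 1.90 for Tnf, 2.14 for Tnfrsf1b, 1.33 for Il10rb, 5.99 for Il1b, 5.21 for Il1r2, 1.54 for Tlr4, 3.80 for Tlr13, 1.34 for Cd86, 4.20 for Siglecf, 4.31 for S100a8, 7.39 for S100a9, 8.26 for Cxcr2 and 4.28 for Csf3r. Matrix and growth genes gave 1.41 for Col1a1, 1.85 for Lox, 3.36 for Thbs1, 1.49 for Tnc, 2.54 for Ccn5, 1.82 for Fbln2, 0.80 for Fbln5, 3.74 for Timp1, 1.20 for Tgfb1, 1.03 for Pdgfra, 1.65 for Cdk6, 0.89 for Mcm6, 1.33 for Slc25a24, 2.01 for Fblim1 and 1.08 for Spred1. Stress, clock and other genes gave 2.72 for Atf3, -1.39 for Asns, 1.68 for Hmox1, 1.004 for Sod3, -3.17 for Gsta3, -0.94 for Tef, -3.15 for Cyp2e1, -3.24 for Tlcd2, -4.11 for Syt12, -2.31 for Igfals, -1.60 for Nos3, -1.03 for Traf4, -11.16 for Eno1b and -6.39 for Cnn1. Genes of the neighbouring gland or uneven like it gave -30.17 for Svs4, -24.01 for Pate14, -24.04 for 9530003J23Rik, -23.14 for Ceacam10 and -13.40 for Dnase2b. The values of genes with no counts in WT-HFD depend on the prior count of the fit.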

How the results depend on the processing

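Across the alternatives, 101 of the 135 named genes that passed kept their call and 132 kept their direction, and the other 3, Cxcr2, Il1r2 and S100a9, turned round without WT-HFD 2 and 4 at log2 fold changes of -0.12, -0.64 and -0.39. Leaving out 1 of the 6 WT libraries in turn gave 2171 to 2646 genes higher and 2328 to 2784 lower. The diet effect then differed between WT and KO for 1870 to 3055 genes, against 2893 with all libraries. The lowest count for that difference came without WT-NCD 1. No KO library was left out, so how far the difference between genotypes rests on a single KO library was not tested. Without WT-NCD 1 and 2 the counts were 1050 higher, 1424 lower and 736 for the difference between genotypes, and without WT-HFD 2 and 4, an alternative chosen after seeing the data, 1783, 1395 and 1383. These fits had 1 library on 1 side, taken to vary like the other groups. Library totals without TMM gave 4841 higher and 1673 lower, with the median of all genes at 0.26, ended the calls of Adipoq, Cox6c, Rgs5, Timd4 and Vegfa and called Col4a1, Col4a2, H2-Aa, H2-Ab1, H2-Eb1, Hif1a and Lamp1 higher, and a fold over 2 left 1639 and 1182. The replicate numbers did not pair the libraries (correlation of deviations -0.08 and -0.02 for the same-numbered pairs, with the third WT-HFD library numbered 4). The replicate block gave 2000 higher, 2028 lower and 1356 for the difference between genotypes. Fits that left libraries out had fewer samples, and the cause of the other changes was not tested. Genes below about 1 CPM, 3 libraries a group and transcripts of neighbouring organs in WT-NCD limit what can be read.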

Other observations

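Clock genes were lower in 11 of 17 cases and higher in 0 in WT-HFD, with 6 lower without WT-NCD 1 and 2. Dbp, a clock output gene, had 38.0, 71.3 and 35.8 CPM in WT-HFD, against 172, 129.9 and 121 CPM in WT-NCD (log2 fold change -1.54 ± 0.27, adjusted p = 0.00166), and Tef 116, 154 and 104 CPM in WT-HFD, against 288, 282 and 349 CPM in WT-NCD (log2 fold change -1.300 ± 0.18, adjusted p = 0.000413). Arntl, of the positive arm of the clock, had 15.8, 7.08 and 8.91 CPM in WT-HFD, against 7.82, 8.52 and 7.05 CPM in WT-NCD and did not pass (log2 fold change 0.44 ± 0.32, adjusted p = 0.307). The time of day at collection is not given in the sources used here.

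Of 18 genes in common use for scaling 3 were higher (16.7%) and 4 lower (22.2%), near the 17.6% and 18.4% of all genes tested. Gapdh had 408, 382 and 397 CPM in WT-HFD, against 985, 944 and 909.8 CPM in WT-NCD (log2 fold change -1.26 ± 0.17, adjusted p = 0.0004) and Actb 3453, 2729.9 and 4038 CPM in WT-HFD, against 1744, 1382 and 1529 CPM in WT-NCD (log2 fold change 1.13 ± 0.22, adjusted p = 0.00253), in opposite directions, while Ppia had 749, 637 and 681 CPM in WT-HFD, against 1016, 718 and 818 CPM in WT-NCD (log2 fold change -0.30 ± 0.15, adjusted p = 0.133) and Tbp 17.2, 19.1 and 21.1 CPM in WT-HFD, against 17.4, 17.7 and 19.7 CPM in WT-NCD (log2 fold change 0.07 ± 0.10, adjusted p = 0.622).

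Single libraries stood apart in a few other transcripts, picked after their values were seen. Alb, the liver albumin transcript, had 33.0, 3.14 and 2.66 CPM in WT-HFD, against 8.37, 4.58 and 7.39 CPM in WT-NCD, with WT-HFD 1 highest. Hbb-bs, a beta globin gene, had 204, 166 and 9.45 CPM in WT-HFD, against 299, 156 and 261 CPM in WT-NCD, with WT-HFD 4 far below the rest, although Hba-a2 had 157, 116 and 293 CPM in WT-HFD, against 261, 139 and 238 CPM in WT-NCD. Clock had 83.5, 59.1 and 62.2 CPM in WT-HFD, against 13.6, 72.6 and 70.0 CPM in WT-NCD and Cebpb 1.70, 69.7 and 3.20 CPM in WT-HFD, against 50.4, 3.84 and 29.7 CPM in WT-NCD, each with libraries that differ many-fold within 1 diet. No test was made of these single libraries.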
